A study of Mus musculus with 12 samples.

Results

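The miR-18 and miR-19 families are small groups of microRNAs (miRNAs) cut from the polycistronic miR-17/92 transcript and from its X-linked paralog, miR-106a/miR-363. They were described here through 6 mature miRNAs, taken by name from the 1549 features of a count table: mmu-miR-18a-5p, mmu-miR-18a-3p, mmu-miR-18b-5p, mmu-miR-18b-3p, mmu-miR-19a-3p and mmu-miR-19b-3p, written below without the species prefix. All 6 passed the filter on low counts. Small RNA had been sequenced from cells labelled wild type and collected by sorting. Androgenetic haploid embryonic stem cells (ESC), which hold a single, paternal chromosome set, came from 3 lines, with 2 libraries of A129-2, 3 of A129-6 and 2 of A129-17. Diploid ESC were the mouse line R1, with 2 libraries. Round spermatids (RS), haploid germ cells stained with Hoechst and sorted from the testes of 129Sv males, gave 3 libraries. Per the labels' protocols, the haploid lines were propagated in serum medium with LIF and inhibitors of the kinases MEK and GSK3, with haploid cells enriched at intervals by sorting. The sources used here give neither the medium of R1 nor the age of the males. Replicates were described as independent sorted samples, with no statement on separate cultures or animals, so p-values cover only the spread of these samples, which could be technical. Only 1 diploid line was sequenced, so ploidy and line cannot be told apart in any comparison with R1.

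A miRNA hairpin yields a 5p and a 3p arm, and the base run from position 2 to 8 of a mature arm, the seed, is the main determinant of which messages it represses. The miR-17/92 transcript (oncomiR-1), a target of Myc, gives rise to families with distinct seeds: miR-17 with miR-20, miR-18, miR-19 and miR-92. In mouse lymphoma models miR-19 is the main oncogenic member of the cluster, and miR-18 together with miR-19 represses the anti-angiogenic gene Ctgf. The 5p arm of the miR-18 hairpins and the 3p arm of the miR-19 hairpins are the usual guide strands. They are called guide arms below, whichever arm had more reads. In mouse ESC, a cleavage of the primary miR-17/92 transcript ahead of the Microprocessor has been described as needed for all of its miRNAs except miR-92.

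The mature sequences below show how close the paralogs are, which limits how far reads can be told apart, and which of them share a seed. They are from RefSeq (GRCm38.p6), are written 5′ to 3′, and have the seed in capitals. All 6 members matched an entry.
miR-18a-5p: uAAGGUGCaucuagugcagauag
miR-18b-5p: uAAGGUGCaucuagugcuguuag
miR-18a-3p: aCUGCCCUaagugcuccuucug
miR-18b-3p: uACUGCCCuaaaugccccuucu
miR-19a-3p: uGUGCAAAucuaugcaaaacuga
miR-19b-3p: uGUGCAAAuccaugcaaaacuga
miR-20a-5p: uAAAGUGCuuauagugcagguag
miR-92a-3p: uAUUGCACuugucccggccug
miR-363-3p: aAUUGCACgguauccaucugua
The miR-18 5p arms share a seed that no other mature miRNA of the RefSeq table had, and the same held for the miR-19 3p arms. With positions counted from the 5′ end, miR-18a-5p differs from miR-18b-5p by A18U and A20U, and miR-19a-3p differs from miR-19b-3p by U11C. The miR-18 3p arms start a base apart and so have different seeds. The last 3 sequences are partners from the same transcripts, of which miR-92a-3p and miR-363-3p share a seed.

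The hairpins of miR-18a and miR-18b are shown because the arms of each moved in opposite directions; capitals mark the 5p and then the 3p arm.
Mir18: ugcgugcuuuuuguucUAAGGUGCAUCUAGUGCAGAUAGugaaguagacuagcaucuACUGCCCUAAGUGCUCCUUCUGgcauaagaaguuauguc
Mir18b: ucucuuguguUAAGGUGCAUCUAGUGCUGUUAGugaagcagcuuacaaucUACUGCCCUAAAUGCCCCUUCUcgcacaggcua
Mir18 lies at chr14:115043851-115043946 on the plus strand (GRCm38), between Mir17 and Mir19a in the last exon of the noncoding host gene Mir17hg (chr14:115042879-115046727). Mir18b lies at chrX:52742331-52742413 on the minus strand, between Mir106a and Mir20b. Mir19a is at chr14:115044000-115044081 and exists only in the first cluster. An identical miR-19b-3p is encoded by Mir19b-1 at chr14:115044305-115044391 and by Mir19b-2 at chrX:52741983-52742066, as is miR-92a-3p by Mir92-1 and Mir92-2, so their counts cannot be assigned to a cluster.

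Library totals were 3709786 to 9102467 counts in the haploid lines, 7632174 and 9176080 in R1, and 155232 to 243714 in RS, so low values in RS rest on few reads. Levels are CPM, each count scaled to the total of its library, and fold changes are log2 values with standard error (SE) from edgeR's quasi-likelihood fit on TMM-scaled libraries. The summed CPM of 12 ESC marker miRNAs (the miR-290 and miR-302 clusters) was 494416 to 652010 in the haploid libraries, 344899 to 348686 in R1 and 69.8 to 4580 in RS. That of 11 testis germ cell miRNAs was 4382 to 17249 in the haploid libraries, 1235 to 1301 in R1 and 300590 to 405969 in RS. The labelled cell types thus carried their own markers. Among 8 blood and endothelial miRNAs the sum was 362 to 859 CPM in the haploid libraries, 705 to 744 in R1 and 1456 to 14849 in RS, and among 6 mesenchymal miRNAs 5859 to 26770, 13397 to 15300 and 14050 to 66270, in the same order of groups; each of these markers had a count in R1 and in RS. Their part in the RS levels below was not tested, and in sorted bulk samples fewer cells with a miRNA and less of it per cell cannot be told apart.

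Against R1, the guide arms of both families were far lower in all 3 haploid lines, and those of miR-19 lower than those of miR-18, while the 3p arms of miR-18 were higher. Of the 6 members, 4 were called lower and 2 higher at an adjusted p under 0.05. The same comparison called 70.8% of the 757 features tested, 35.3% lower and 35.5% higher, so a call by itself was common in these libraries. How many of all features lay apart between groups without overlap was not counted. Where a member is said below not to overlap, this is a description and may be common too. The median log2 fold change was -3.74 over the members and 0.33 over all features.

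miR-19b-3p, the most abundant member in R1, had 5.93 and 15.2 CPM in A129-2, 13.9, 9.70 and 16.3 CPM in A129-6 and 13.2 and 6.43 CPM in A129-17, against 1534 and 1198 CPM in R1. Every haploid library was therefore far below both R1 libraries, with no overlap. The log2 fold change was -6.70 (SE 0.42; adjusted p = 3.13e-09), a 104-fold lower level and the 7th lowest value of all 757. miR-19a-3p had 0 and 1.54 CPM in A129-2, 0.971, 0.636 and 0.137 CPM in A129-6 and 3.05 and 1.07 CPM in A129-17, against 106 and 89.9 CPM in R1. These haploid values rest on 53 reads in all, and the count of 0 in A129-2 replicate 1 allows up to 0.809 CPM. Its log2 fold change was -6.33 (SE 0.50; adjusted p = 4.23e-08), the 11th lowest, and became -8.26 without A129-2 replicate 2, which leaves that line with no read of it. Added together, the miR-19 arms averaged 12.4 ± 1.35 CPM in the haploid lines (SD over 3 line means) and 1464 ± 249 CPM in R1 (SD, n = 2).

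miR-18b-5p, the more abundant miR-18 guide in ESC, had 51.2 and 57.9 CPM in A129-2, 49.8, 63.6 and 27.7 CPM in A129-6 and 27.7 and 40.3 CPM in A129-17, against 639 and 600.5 CPM in R1. miR-18a-5p had 11.6 and 17.2 CPM in A129-2, 11.9, 22.4 and 8.51 CPM in A129-6 and 5.23 and 13.0 CPM in A129-17, against 209 and 169 CPM in R1. For both, the highest haploid library stayed well under the lower R1 library. The log2 fold change was -3.68 (SE 0.24; adjusted p = 4.26e-09) for miR-18b-5p and -3.81 (SE 0.33; adjusted p = 9.90e-08) for miR-18a-5p, and miR-18b-5p was 12.8-fold lower. The pair, whose genes lie on different chromosomes, thus fell by nearly the same factor, but reads of sequences this close can be assigned to the wrong one. Their sum averaged 57.8 ± 13.3 CPM in the haploid lines (SD over 3 line means) and 808 ± 55.4 CPM in R1 (SD, n = 2), with a log2 fold change of -3.68 (SE 0.25; adjusted p = 5.00e-09).

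The miR-18 passenger arms went the other way by a small amount. miR-18a-3p had 36.7 and 46.3 CPM in A129-2, 33.6, 44.2 and 28.7 CPM in A129-6 and 26.4 and 28.2 CPM in A129-17, against 19.1 and 19.2 CPM in R1. miR-18b-3p had 13.5 and 19.1 CPM in A129-2, 16.8, 17.2 and 12.4 CPM in A129-6 and 10.5 and 15.3 CPM in A129-17, against 8.39 and 7.30 CPM in R1. Both lay higher in each haploid library than in R1. Their log2 fold changes were 1.00 (SE 0.34; adjusted p = 0.0170) and 1.07 (SE 0.39; adjusted p = 0.0230), which, less the median of all features, leaves 0.67 and 0.74. Both calls were lost with another scaling: the adjusted p was 0.0559 for miR-18a-3p and 0.0671 for miR-18b-3p with RLE scaling, under which the median of all features was 0.08 rather than 0.33. They were also lost without A129-2 replicate 2 (0.0508 for miR-18a-3p and 0.0799 for miR-18b-3p), without R1 replicate 1 (0.132 and 0.114, in the same order) and without R1 replicate 2 (0.159 and 0.213).

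**Figure D1:**
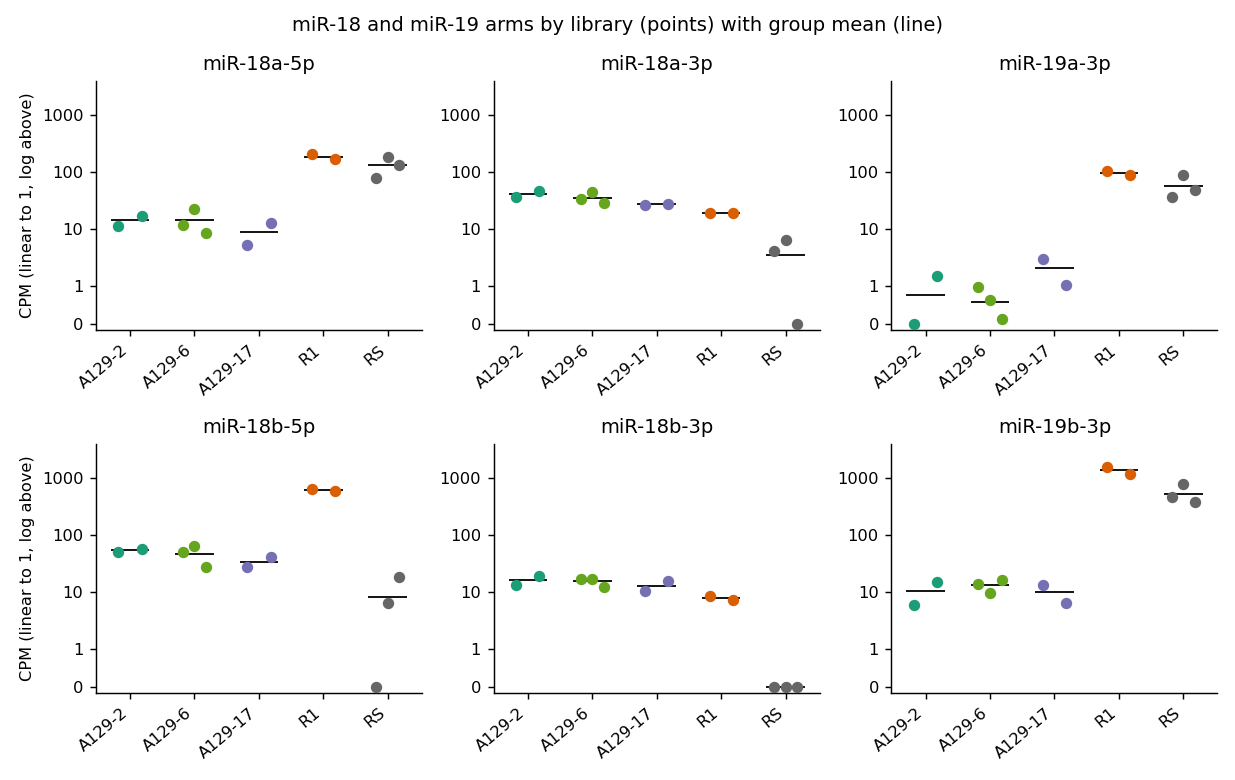
CPM of each member (vertical axis, linear up to 1 and logarithmic above) in every library, grouped by haploid line, R1 and RS, with a line at the group mean. The guide arms (left and right panels) lie far lower in the haploid lines than in R1. The 3p arms of miR-18 (middle panels) are highest in the haploid lines, while each RS library holds 0 or 1 read of either.

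Each line was also set against R1 by itself; these comparisons share the R1 libraries and are not independent. A129-2 had 4 members called lower and 1 higher where 59.4% of features were called (28.5% lower, 30.9% higher). A129-6 had 4 lower and 2 higher where 66.8% were called (32% lower, 34.9% higher), and A129-17 had 4 lower and none higher where 66.4% were called (31.7% lower, 34.7% higher). For miR-18b-5p, the log2 fold change was -3.55 for A129-2, -3.64 for A129-6 and -3.83 for A129-17. For miR-19b-3p, A129-2 had -6.94, or -6.33 without its replicate 1 and -8.31 without its replicate 2. A129-6 had -6.45, and A129-17 had -6.70, or -7.49 without its replicate 1. miR-18a-3p was called in A129-2 (1.08, adjusted p = 0.0309, but 0.47 with 0.404 without A129-2 replicate 2) and A129-6 (1.02, adjusted p = 0.0255), while in A129-17 it had 0.89 with an adjusted p of 0.0631. miR-18b-3p was called in A129-6 (1.11, adjusted p = 0.0322), with 1.04 in A129-2 (adjusted p = 0.0603, but 0.32 with 0.662 without A129-2 replicate 2) and 1.07 in A129-17 (adjusted p = 0.0515). Each of these 3p calls in single lines was lost without either R1 library.

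Between the haploid lines, edgeR's F-test called none of the 6 members, where it called 2.51% of all features. In that test 1 member, miR-19a-3p, was under 0.05 before adjustment (0.0467, with an adjusted p of 0.220, or 0.0443 where no filter on low counts was used). Its log2 difference A129-17 minus A129-6 was 2.16 (SE 0.81; adjusted p = 0.248). With a group mean of 2.06 ± 1.40 CPM in A129-17 (SD, n = 2) and 0.582 ± 0.420 CPM in A129-6 (SD, n = 3), this rests on 27 reads in A129-17 and 12 reads in A129-6. For the other 5 members the adjusted p between lines was 0.812 to 0.990. The haploid lines thus could not be ordered for any member.

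Across the other arms of the 2 transcripts, most were lower in the haploid lines too, but by unequal factors, and the miR-92a arms were higher. Of 16 such arms in the table, 11 passed the filter: 8 were called lower and 3 higher, with a median log2 fold change of -1.50. The arms with the miR-17 seed fell together: miR-20a-5p had -3.44, miR-20b-5p -3.19, miR-17-5p -2.75 and miR-106a-5p -2.39. The miR-92 seed split: miR-92a-3p was 4.63-fold higher (log2 2.21, SE 0.25; adjusted p = 1.21e-06), whereas miR-363-3p, the last of the X-linked cluster, had -1.48 (SE 0.22; adjusted p = 2.60e-05). The remaining called arms were miR-20a-3p (-4.03, SE 1.03), miR-363-5p (-1.50), miR-17-3p (-0.90), miR-92a-1-5p (0.94) and miR-92a-2-5p (1.62). The passenger arms of miR-19 were nearly absent: miR-19a-5p had 1 read in all ESC libraries, and miR-19b-1-5p had 1 read in the haploid lines and 16 in R1. In the third paralog cluster, miR-106b/25, which has neither family, 4 of 6 arms were lower and 1 was higher, with a median of -1.08.

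**Figure D2:**
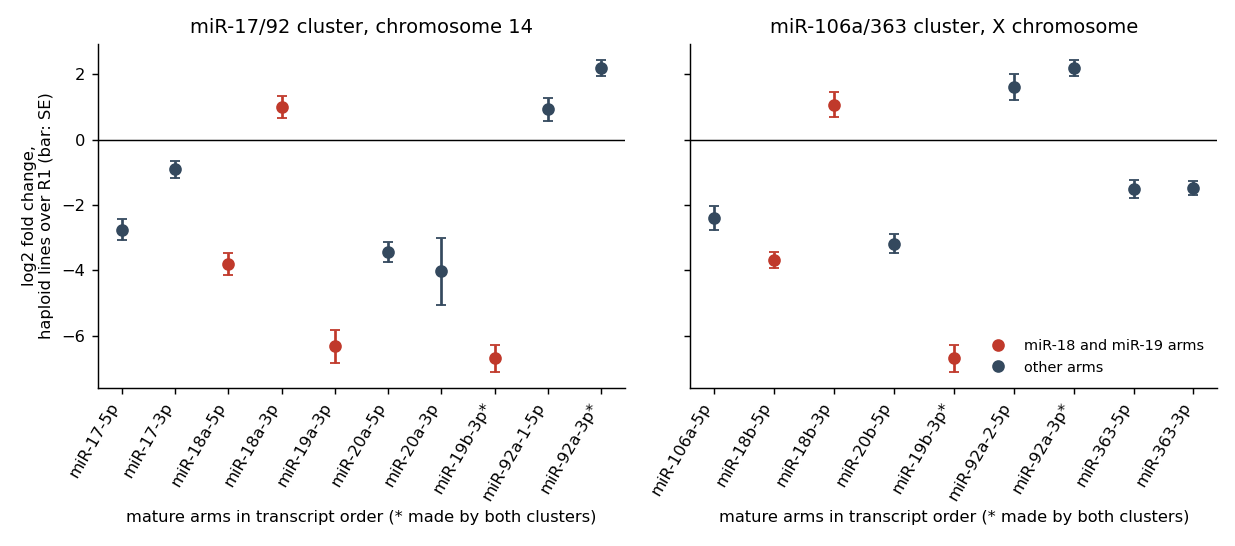
Log2 fold change of the haploid lines over R1 (vertical axis, bars are the SE of the fit) for each tested arm in the order of the miR-17/92 and miR-106a/miR-363 transcripts; red points are the miR-18 and miR-19 arms. The miR-19 3p arms are lowest, at -6.33 and -6.70, and the 3p arms of miR-18 lie above 0 beside 5p arms near -3.7.

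Fold changes of the kind above moved with base composition across the whole table. Among tested features with a RefSeq sequence, the median log2 fold change of the haploid lines over R1 was -3.05 for the 38 with under 35% G and C, -2.45 for 140 with 35 to 45%, -0.22 for 242 with 45 to 55%, 1.75 for 128 with 55 to 65% and 1.87 for 61 with more. The members lie away from the median of their range of G and C, the guide arms below it and the miR-18 3p arms above: miR-19a-3p has 34.8% G and C, miR-19b-3p 39.1%, both miR-18 5p arms 43.5% and miR-18a-3p 54.5%, with miR-18b-3p between the last values, beside 57.1% in miR-92a-3p. Arms of like content differed: miR-20a-5p has the 39.1% of miR-19b-3p and a log2 fold change of -3.44, and miR-363-3p has 40.9% and -1.48. With a correction of each library for G and C content, the log2 fold change was -4.95 for miR-19b-3p, -4.05 for miR-19a-3p, -2.64 for miR-18a-5p and -2.51 for miR-18b-5p, each still called. It was 1.23 for miR-18b-3p (adjusted p = 0.0108) and 0.35 for miR-18a-3p (adjusted p = 0.348). The fall of the guide arms was thus smaller with the correction, more than 1.5 times in fold, and kept its direction. The part of base composition in these fold changes was not tested.

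**Figure D3:**
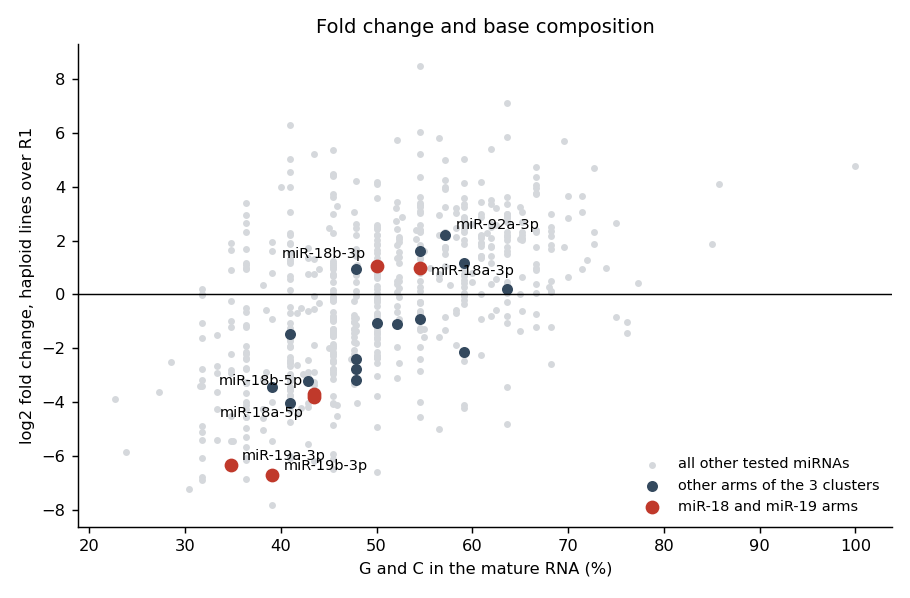
Share of G and C in the mature RNA (horizontal axis, %) against the log2 fold change of the haploid lines over R1 (vertical axis) for tested miRNAs with a RefSeq sequence; red points are the miR-18 and miR-19 arms and dark points the other arms of the 3 paralog clusters. Fold changes are lower at low G and C, where the miR-19 arms lie.

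Ratios within a library do not depend on its scaling and were compared between groups with exact two-sided permutation tests over libraries, adjusted over 11 ratios. They were not corrected for G and C content, which differs between many of the arms compared. With 7 haploid and 2 R1 libraries the smallest possible p is 0.0556, so no ratio could be called against R1. The arms of the miR-18a hairpin changed order: pooled over libraries, the haploid lines held 598 reads of miR-18a-5p and 1626 of miR-18a-3p, against 3141 and 322 reads in R1. The log2 ratio of 5p to 3p averaged -1.53 in the haploid libraries (range -2.32 to -0.98) and 3.29 in R1 (range 3.13 to 3.44), a 28.2-fold difference with no overlap (p = 0.0556 by the exact permutation test, the smallest possible; adjusted p = 0.102). The miR-18b hairpin showed a like shift without a change of order, from a ratio added after its values were seen and given with no test. Its log2 5p to 3p ratio averaged 1.56 in the haploid libraries and 6.30 in R1, a 26.7-fold difference.

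The miR-19 arms separated from their neighbours as well. Relative to miR-20a-5p, which lies between Mir19a and Mir19b-1, the log2 ratio of miR-19b-3p averaged -3.97 in the haploid libraries (range -4.81 to -2.55) and -0.66 in R1 (range -0.71 to -0.60), a 9.92-fold difference without overlap. Relative to miR-92a-3p, made by both clusters like itself, it averaged -10.07 in the haploid libraries and -1.06 in R1. Relative to miR-17-5p, from the hairpin just before its own, the log2 ratio of miR-18a-5p averaged -2.79 in the haploid libraries (range -3.25 to -2.11) and -1.77 in R1 (range -1.83 to -1.70), a 2.04-fold difference without overlap (p = 0.0556 by the exact permutation test, the smallest possible). Relative to miR-20a-5p it averaged -3.84 in the haploid libraries (range -4.38 to -3.15) and -3.51 in R1 (range -3.54 to -3.48), and the groups overlapped. The paralog ratios overlapped too, with miR-18b-5p over miR-18a-5p at 1.88 in the haploid libraries and 1.72 in R1, and miR-19b-3p over miR-19a-3p at 3.88 in the haploid libraries and 3.79 in R1; with so few libraries, overlap does not show that any of these ratios are alike.

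**Figure D4:**
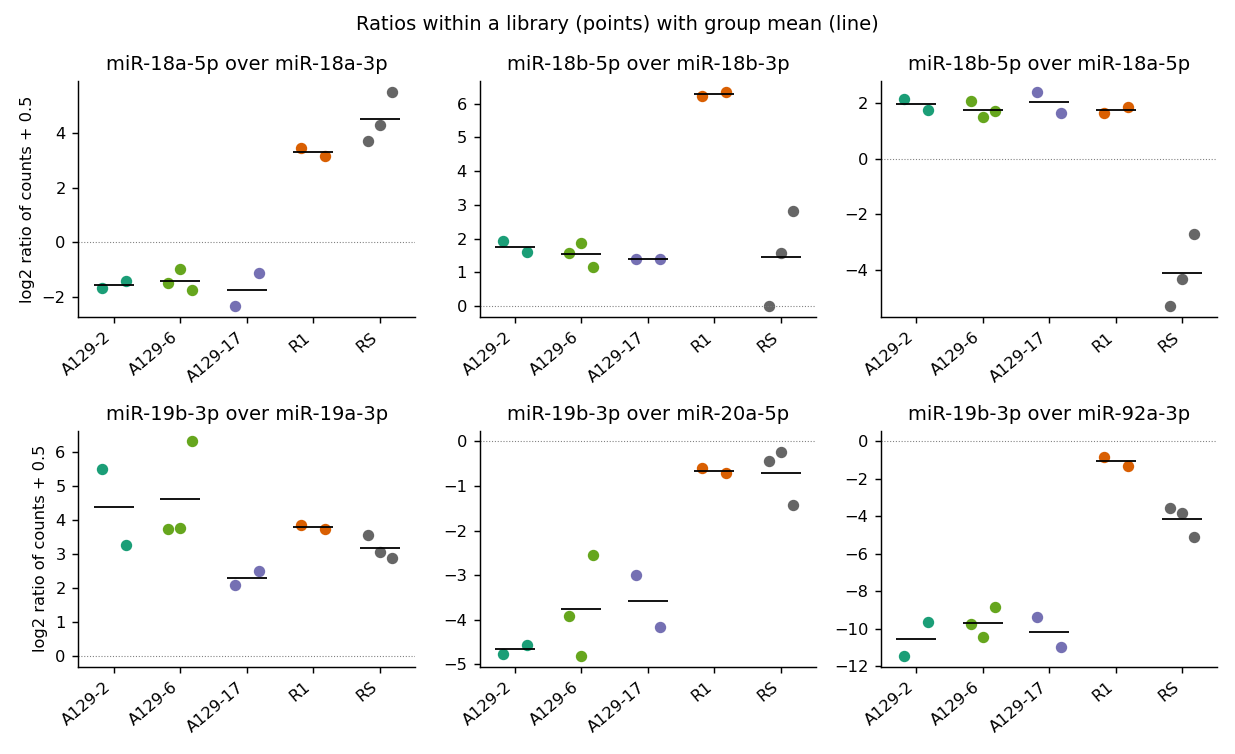
Log2 ratios of counts (0.5 added to each count) within every library (points) with the group mean (line), by haploid line, R1 and RS. The ratio of miR-18a-5p to miR-18a-3p lies below 0 in each haploid library and above 3 in R1 and RS, and miR-18b-5p over miR-18a-5p falls below 0 only in RS. Each RS library holds only 0 or 1 read of miR-18a-3p, so the size of that ratio in RS leans on the added 0.5.

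The make-up of the counts from both transcripts shows the same shifts as shares, again with no correction for G and C content. Both transcripts together accounted for 0.808% to 1.78% of a haploid library, 0.893% to 0.958% in R1 and 0.670% to 1.50% in RS, so the totals overlapped between the groups. The 6 members made up 0.667% to 1.19% of these counts in the haploid libraries, 23.3% to 26.2% in R1 and 3.81% to 8.63% in RS. The miR-19 3p arms alone were 0.0333% to 0.204% in the haploid libraries, 14.4% to 17.1% in R1 and 2.81% to 7.41% in RS. miR-92a-3p took 91.6% to 95.4% in the haploid libraries, 28.1% to 33.3% in R1 and 79.4% to 87.4% in RS. In RS, as in the haploid lines, the transcripts' reads were thus mostly miR-92a-3p, but the miR-19 share of each RS library was above that of each haploid library.

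**Figure D5:**
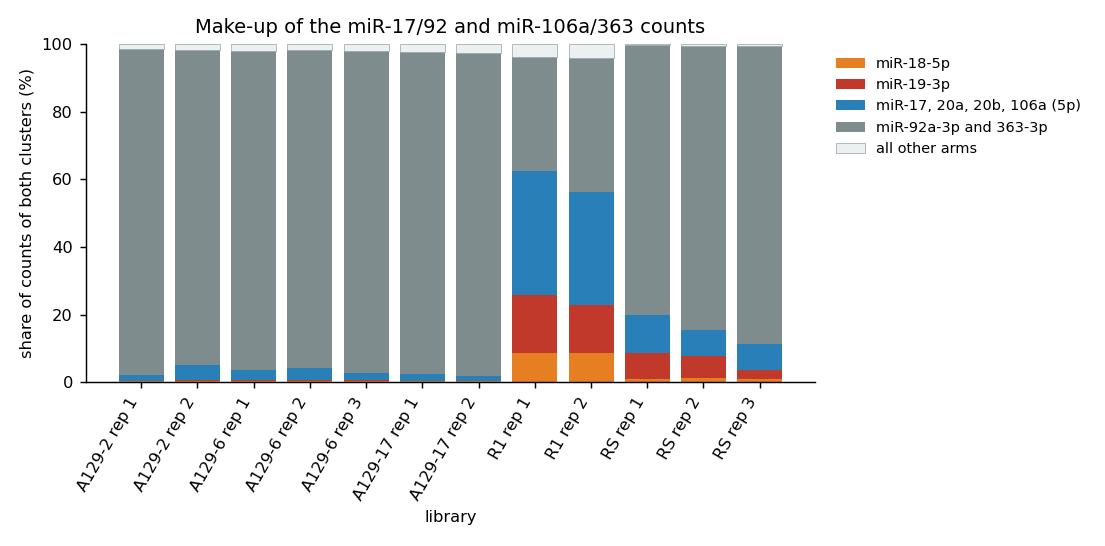
Share of the counts of both transcripts (vertical axis, %) taken by each seed family in every library, from the haploid lines to R1 and RS. The miR-92 seed fills most of each haploid and RS bar, and the miR-18 and miR-19 families are visible in R1 and, less, in RS.

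Against RS, the haploid lines had lower miR-19 and miR-18a-5p and higher miR-18b-5p and miR-18 3p arms. Of the 6 members, 3 were called higher and 3 lower, where 65.9% of 806 features were called (44.8% higher, 21.1% lower). The median log2 fold change of all features was 2.79, and it moved to 1.43 with upper-quartile and 1.29 with total-count scaling, so directions here depend on the scaling: of the called features 68.0% were higher, against 49.1% with upper-quartile scaling, 45.9% with total-count scaling and 35.6% with the G and C correction. miR-19b-3p had 5.93 to 16.3 CPM in the haploid libraries (median 13.2), against 459.6, 773 and 372 CPM in RS. miR-19a-3p had 0 to 3.05 CPM in the haploid libraries (median 0.971), against 36.9, 90.2 and 48.0 CPM in RS. Neither overlapped between the groups, but how many of all features separated likewise was not counted. Log2 fold changes were -3.68 (SE 0.39; adjusted p = 6.82e-09) for miR-19b-3p and -3.90 (SE 0.58; adjusted p = 1.49e-06) for miR-19a-3p. Without A129-2 replicate 2 they were -4.55 and -6.02, and without A129-17 replicate 1 -4.37 and -4.64, in that order, and both were still called. Both stayed called and lower over all 22 alternatives, with larger falls under upper-quartile scaling (-5.26 for miR-19b-3p and -5.49 for miR-19a-3p) and total-count scaling (-5.57 and -5.74, in the same order).

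The miR-18 guides parted in RS. miR-18a-5p had 5.23 to 22.4 CPM in the haploid libraries, against 78.0, 187 and 132 CPM in RS, a log2 fold change of -1.61 (SE 0.38; adjusted p = 0.000585), or -2.24 without A129-2 replicate 2 and -2.22 without A129-17 replicate 2. With upper-quartile scaling it was -3.20, with total-count scaling -3.40 and with the G and C correction -2.82. miR-18b-5p had 27.7 to 63.6 CPM in the haploid libraries, against 0, 6.44 and 18 CPM in RS, which are 0, 1 and 3 reads. Its log2 fold change was 4.34 (SE 0.62; adjusted p = 9.18e-07), or 3.63 without RS replicate 1 and 5.71 without RS replicate 3. It was 2.76 with upper-quartile scaling, 2.60 with total-count scaling and 3.16 with the G and C correction, and the pooled reads per library total gave a 6.43-fold ratio (95% Poisson interval 2.51 to 23.6). The log2 ratio of miR-18b-5p to miR-18a-5p averaged 1.88 in the haploid libraries (range 1.50 to 2.39) and -4.09 in RS (range -5.29 to -2.68), without overlap (p = 0.0167 by the exact permutation test, the smallest possible; adjusted p = 0.0229). Of the other arms made only by the X-linked cluster, miR-106a-5p, miR-92a-2-5p and miR-363-5p had no read in RS and miR-20b-5p had 1 read. In contrast, miR-363-3p had 67 reads, 0.551% to 2.04% of the counts of both transcripts in an RS library. The summed miR-18 5p arms were not called (log2 0.49, SE 0.36; adjusted p = 0.234), and their direction turned with the scaling, with -1.09 under upper-quartile and -1.29 under total-count scaling.

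The miR-18 3p arms were at the detection limit in RS. miR-18a-3p had 26.4 to 46.3 CPM in the haploid libraries and 2 reads over the RS libraries, a 9.98-fold ratio of pooled reads per library total (95% Poisson interval 2.76 to 82.5). Its call was lost with the G and C correction (log2 fold change 1.29, adjusted p = 0.224). miR-18b-3p averaged 14.9 CPM over the haploid lines and had 0 of 565641 RS counts, which allows up to 5.30 CPM. For its pooled reads per library total, the 95% Poisson interval of the haploid over RS ratio started at 2.33.

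R1 against RS shares the RS libraries with the comparison above and called all 6 members higher in R1, where 53.6% of features were called (34.2% higher, 19.4% lower) with a median log2 fold change of 2.04. Of the called features 63.9% were higher, against 49.5% with upper-quartile scaling, 53.2% with total-count scaling, 38.5% with the G and C correction and 73.0% when scaling ignored the miR-290 cluster. miR-18b-5p was the member with the largest such value not resting on an RS group at 0: 639 and 600.5 CPM in R1, against 0, 6.44 and 18 CPM in RS, a log2 fold change of 7.16 (SE 0.65; adjusted p = 8.44e-10), which ran from 6.47 to 9.39 when single libraries were left out (lowest without RS replicate 1, highest without RS replicate 3). For miR-19b-3p it was 2.14 (SE 0.52; adjusted p = 0.000936), for miR-19a-3p 1.57 (SE 0.62; adjusted p = 0.0348) and for miR-18a-5p 1.33 (SE 0.48; adjusted p = 0.0210). Less the median of all features these leave 0.10, -0.48 and -0.71. The calls of the miR-18 3p arms were lost with the G and C correction (adjusted p = 0.483 for miR-18a-3p and 0.122 for miR-18b-3p). The R1 and RS libraries overlapped for miR-19a-3p and miR-18a-5p, whose calls were lost without RS replicate 1 (adjusted p = 0.136 for miR-19a-3p and 0.0871 for miR-18a-5p), and the calls of miR-19b-3p, miR-19a-3p and miR-18a-5p were all lost with upper-quartile scaling and with the G and C correction, where miR-18a-5p turned to -0.34. Without RS replicate 2 the values were higher, at 3.40 for miR-19b-3p, 2.91 for miR-19a-3p and 2.55 for miR-18a-5p; without R1 replicate 2 they were 2.96, 2.36 and 2.14, and without A129-6 replicate 1 they were 2.74, 2.20 and 1.94, in that order. The median of all features moved as well, to 3.18 without RS replicate 2 and 2.58 without either of the other 2 libraries. Without RS replicate 3 miR-18a-5p had 1.97. In order of CPM, miR-18a-5p and miR-19a-3p were thus lowest in the haploid lines, while R1 and RS overlapped. miR-19b-3p was highest in R1, then in RS, then in the haploid lines, and miR-18b-5p was highest in R1, then in the haploid lines, then in RS. The 3p arms of miR-18 were highest in the haploid lines, then in R1, then in RS, but the lower steps of this order are weak. For miR-18b-3p, R1 averaged 7.84 CPM, while its 0 reads in RS allow up to 5.30 CPM. The calls of both arms in the haploid lines over R1 were also lost under some alternatives.

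Among features outside these clusters with a mean of at least 10 normalised CPM, those closest to miR-18a-5p in log2 level over all 12 libraries were miR-9-5p (Pearson r = 0.960), miR-9b-3p (r = 0.954) and miR-32-5p (r = 0.948). Closest to miR-19b-3p were miR-146b-5p (r = 0.963), miR-142a-3p and miR-142b (r = 0.950 each, with the same counts in every library). These are descriptions over libraries that fall into 3 kinds of cell, and miR-9b-3p and miR-142b had nearly or exactly the counts of miR-9-5p and miR-142a-3p, so the reads may be shared. Their G and C content was 31.8% to 40.9%, beside 39.1% in miR-19b-3p and 43.5% in miR-18a-5p. miR-32-5p had 0 to 3.66 CPM in the haploid libraries, against 81.4 to 82.9 CPM in R1 and 18 to 38.7 CPM in RS. miR-142a-3p is among the blood and endothelial markers summed above, and miR-9-5p among those of differentiated lineages. The former had 0.539 to 3.02 CPM in the haploid libraries, 87.7 to 93.7 CPM in R1 and 24.0 to 69.8 CPM in RS. The part of other cell types in these likenesses was not tested.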

How the data were processed

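The values deposited by the authors are raw counts of reads per miRNA in 12 libraries, with no normalisation. Per the labels' protocols, the 3' and then the 5' adapter was ligated before reverse transcription and PCR. Bowtie 0.12.9 and DESeq2 are named per the submitters' processing notes; the build, the miRBase release and the treatment of multiple matches are not given in the sources used here. All 12 columns were assigned by name. Counts were tested in R 4.3.3 with edgeR 4.0.16 (robust quasi-likelihood F-test on group means, TMM, filterByExpr with minimum count 10 and minimum total 15, Benjamini-Hochberg over all features, threshold 0.05); adjusted p-values come from this test unless another is named. The 9 ESC libraries were fitted together for comparisons among ESC and all 12 for those with RS, with the 3 haploid lines weighing equally. Replicates were compared by counts, and none were alike within sampling noise. Ratios used counts + 0.5 and exact permutation tests (scipy 1.17.1). These tests and the mean ratios took each library as a unit, without regard to its line. Bounds used 3 counts; intervals and bounds cover counting error only, since PCR reads are not independent molecules. Named miRNAs were the members, every arm of the 3 paralog clusters, and the 3 features most correlated with miR-18a-5p and with miR-19b-3p. Members and lists were chosen with earlier results of these data known. Alternatives covered scaling, filters, DESeq2 1.42.0, G and C correction (loess, over features with a sequence), replicate block, summing per line and leaving out libraries.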

Additional observations from a re-analysis of the deposited data

How the results depend on the processing

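The fall of miR-18a-5p, miR-18b-5p, miR-19a-3p, miR-19b-3p and of both sums against R1 kept its direction and its call under all 24 alternatives. Counts of called features stayed within 1.5 times of the main ones, at 376 to 570 for the haploid lines against R1, 360 to 539 against RS, and 343 to 478 for R1 against RS. The calls of miR-18a-3p and miR-18b-3p against R1 were lost under 8 and 7 of the 24 alternatives. Alternatives that left out an RS library refitted the same ESC libraries, so they could not move any of these results against R1. With all 12 libraries in the fit, 65.9% of the features called against R1 were higher and the median was 0.94, beside 50.2% and 0.33 in the fit of the ESC. Without A129-6 replicate 3 and A129-17 replicate 1, the libraries of lowest scaling factor and an alternative added after the data had been seen, miR-19b-3p had -7.15 and miR-18b-5p -3.64 against R1.

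The summed miR-18 5p arms of the haploid lines against RS (0.49, not called) turned to -0.0168 with RLE scaling, -1.09 with upper-quartile scaling, -1.29 with total-count scaling, -0.0100 with DESeq2 and -0.70 with the G and C correction, and ran from -0.0505 to 0.793 when single libraries were left out. It was called lower with upper-quartile scaling (adjusted p = 0.00583) and total-count scaling (adjusted p = 0.00735). With the G and C correction miR-18a-5p in R1 against RS turned to -0.34. The log2 ratio of miR-19b-3p to miR-19a-3p, haploid lines minus R1 (0.09, not called), turned to -0.17 with 1 added to each count and to -0.0366 over line means, and ran from -0.32 to 0.38 when single libraries were left out; the causes were not tested. The ratios called against RS had adjusted p-values of 0.0679 to 0.0764 without any 1 RS library, where the smaller design cannot reach the threshold.

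The replicate numbers showed no clear pairing of the samples: deviations of same-numbered ESC libraries correlated at -0.144 to 0.118, with 1 of 12 pairs over 0.1. In groups of 2 libraries the deviations mirror each other, so these pairs are not independent and cannot settle whether samples were paired. With a replicate block 533 features were called against R1, beside 536 without it; miR-19a-3p in R1 against RS lost its call (adjusted p = 0.0894), as did both miR-18 3p arms in A129-6 against R1, while miR-18b-3p gained one in A129-17. RS libraries of 155232 to 243714 counts limit what can be said of the miR-18 3p arms and miR-18b-5p there.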
